A study of Arabidopsis thaliana with 4 samples.

Results

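A set of 10 probe sets for the synthesis of methionine-derived (aliphatic) glucosinolates were followed over 4 groups of Arabidopsis thaliana shoot apices. They are 10 of the 22746 rows of the deposited table. They stand for BCAT4 (257021_at), MAM1 (249866_at), MAM3 (249867_at), CYP79F1/F2 (262717_s_at), CYP83A1 (254687_at), SOT17 (255773_at), SOT18 (260385_at), FMO GS-OX1 (261913_at), MYB28 (247549_at) and HMT3 (258322_at). The members were chosen by their signals on these same 4 arrays as well as by their place in the pathway. All values below are therefore descriptions, and none is tested. The annotation table used here pairs 1 of the 10 probe sets with its gene (BCAT4). The gene names of the other 9 were given with the set and were not checked against an annotation.

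Gene expression was measured on Affymetrix arrays in shoot apices of plants kept for 14 days on agar medium under long days, with 16 hours of light and 8 of darkness. One genotype was wild-type Col-0, and the other was the as2-1 mutant in the same background, named for its lesion in the leaf polarity gene AS2. Each genotype was grown either with 10H-CPT, a hydroxylated camptothecin and so a poison of topoisomerase I (TOP1), or without it (the samples labelled DMSO, after the inhibitor's solvent). The labels give no dose, and there is 1 array for each of the 4 groups, namely untreated wild type (Col-0 DMSO), untreated mutant (as2-1 DMSO), treated wild type (Col-0 10H-CPT) and treated mutant (as2-1 10H-CPT). No ratio below therefore has a replicate check, a replicate error or a p-value.

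Glucosinolates are sulfur-rich thioglucosides that plants of the cabbage order store for defence and break down when tissue is damaged. Those derived from methionine are made in stages: the methionine side chain is lengthened in the chloroplast, the core structure is built on the lengthened amino acid, and the side chain is then modified. R2R3 MYB transcription factors, among them MYB28, activate the genes of these stages together. In leaves they are the main glucosinolates of the Col-0 accession.

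The arrays carry MAS5 signals on a linear scale, and their median signals lay between 86.0 and 88.4. The 40th percentile of all signals, 46.6, served as a floor, with 13590 to 13711 probe sets of an array above it. Ratios with a signal below the floor are given as "at least". Of the markers of shoot apices, CLV3, a signal peptide gene of the meristem centre, was below the floor on all 4 arrays (1.1 to 15.0). Among 5 primordium genes added after the signals had been seen, the organ polarity genes YAB3 (180.2 to 253.9) and PHV (408.8 to 640.6) were above the floor on every array, and so was YAB5. JAG and LAS were below it on every array. Of the root markers, EXPA7 of root hairs was below the floor (2.7 to 9.2). PYK10, a glucosidase gene of roots and of seedling endoplasmic reticulum bodies, had signals of 3485 in untreated wild type, 3829 in untreated mutant, 4396 in treated wild type and 5601 in treated mutant. Its part in the results below was not tested. The annotation table used here pairs no probe set with AS2 or the TOP1 genes, so the mutation was not checked by its own transcript.

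Most of the members shared a single pattern. Their signals were lowest in untreated wild type, intermediate in untreated as2-1, and high and nearly equal in both genotypes on the inhibitor. In Col-0, 9 of the 10 members were at least 2-fold higher with the inhibitor, against 1.55% of the 14091 probe sets measured in that comparison. In as2-1 it was 7 of 10, against 2.96% of 14244. Without inhibitor, 8 members had at least a 2-fold excess in the mutant, against 1.04% of 14069, and 1 (MAM3) was below the floor in both. On 10H-CPT none was 2-fold higher in as2-1, where 2.69% of 14147 were, and MAM3 was 2-fold lower, where 1.57% were. These contrasts were used in choosing the members, so nothing is read from the shares.

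**Figure D1:**
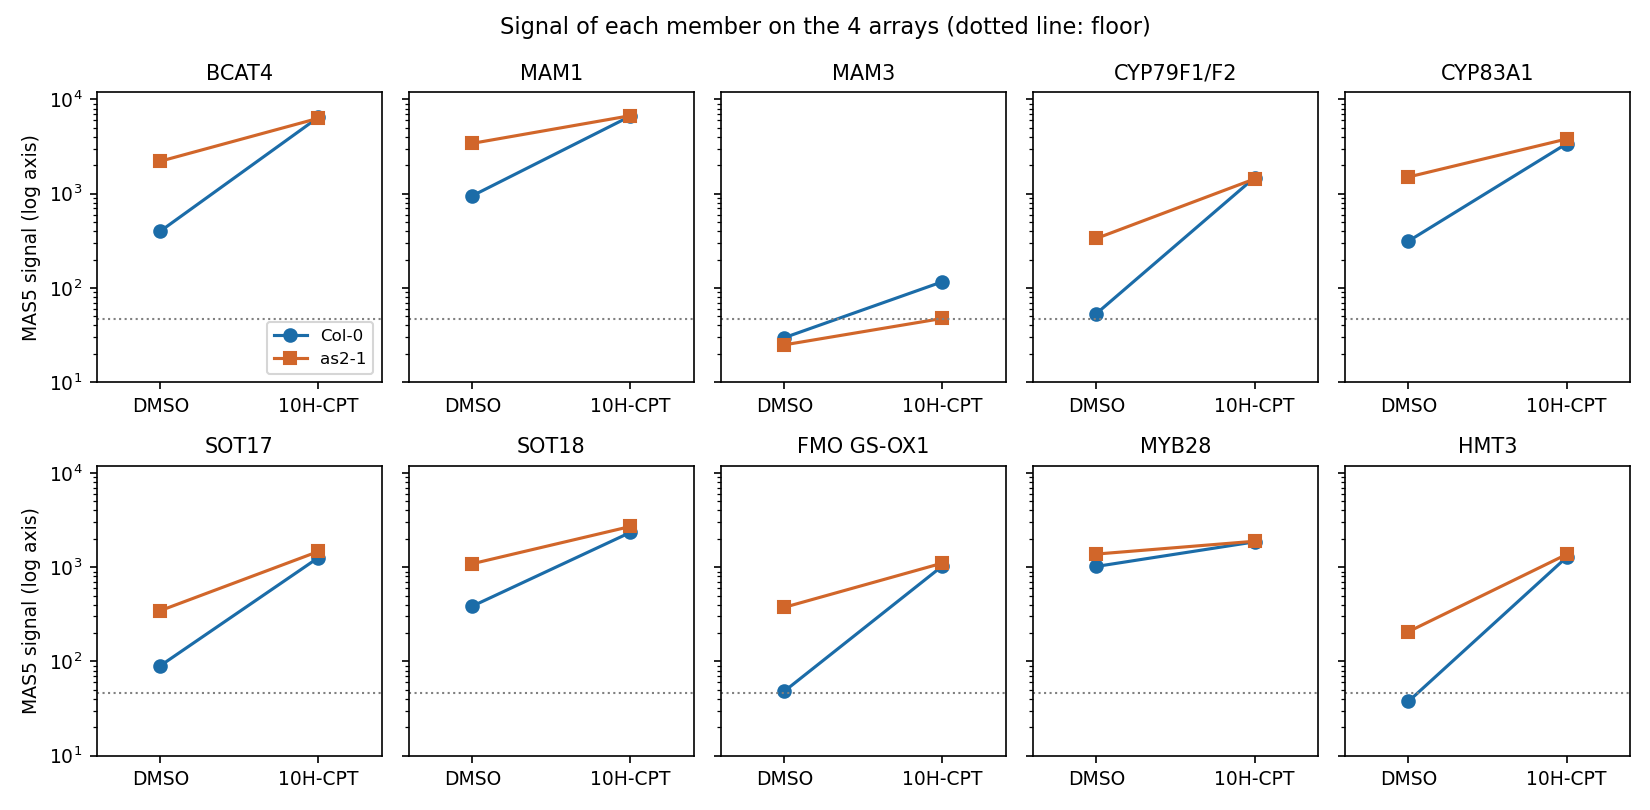
MAS5 signal (log axis) of the 10 members on DMSO and on 10H-CPT, with circles for Col-0 and squares for as2-1. Each point is 1 array and the dotted line is the floor of 46.6. The genotypes nearly meet on 10H-CPT for all members except MAM3, and stand apart on DMSO for all except MAM3 and MYB28.

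Chain elongation begins with BCAT4, the aminotransferase that converts methionine to its 2-oxo acid. BCAT4 had signals of 400.7 in Col-0 DMSO, 2213 in as2-1 DMSO, 6472 in Col-0 10H-CPT and 6321 in as2-1 10H-CPT. The untreated wild type was thus well below the other groups, and the treated groups were alike. The inhibitor ratio was 16.1-fold in Col-0 and 2.86-fold in as2-1. On DMSO the mutant was 5.52-fold above the wild type, and on 10H-CPT the genotypes differed by 1.02-fold.

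MAM1 encodes a methylthioalkylmalate synthase, which condenses the 2-oxo acid with acetyl-CoA and so sets how long the chain becomes. Its signals were 951.5 (Col-0 DMSO), 3423 (as2-1 DMSO), 6658 (Col-0 10H-CPT) and 6732 (as2-1 10H-CPT). As for BCAT4, untreated wild type was lowest, untreated mutant came next and the treated groups were alike. The inhibitor ratio of MAM1 was 7.0-fold in Col-0 and 1.97-fold in as2-1, just under the 2-fold threshold. The mutant excess of MAM1 on DMSO was 3.60-fold.

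MAM3, which adds further rounds of elongation and lies next to MAM1 in the genome annotation (assembly TAIR10.1, where its symbol is IMS2), was the dimmest member and did not follow. Its signals were 29.7 in Col-0 DMSO, 24.9 in as2-1 DMSO, 116.4 in Col-0 10H-CPT and 47.5 in as2-1 10H-CPT. Both DMSO signals were below the floor, and the treated mutant was barely above it. MAM3 was at least 2.5-fold higher on the inhibitor in Col-0. On 10H-CPT it was 2.45-fold lower in as2-1 than in Col-0, unlike the other 9 members, which differed there by at most 0.22 on the log2 scale. With log2(signal + 32) in place of the floor, this ratio of MAM3 was -0.90 on the log2 scale and no longer past 2-fold. With a floor of 137.3 both signals were below it. With the floor at the 20th percentile, the log2 inhibitor ratio of MAM3 was 1.97 in Col-0 and 0.93 in as2-1.

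The core structure is begun by the cytochromes P450 CYP79F1 and CYP79F2, which turn the lengthened methionines into aldoximes. These neighbouring genes share 1 probe set and cannot be told apart here. Their joint signal was 53.5 in Col-0 DMSO, close to the floor, 335.5 in as2-1 DMSO, 1480 in Col-0 10H-CPT and 1434 in as2-1 10H-CPT. The inhibitor ratio in Col-0 was 27.7-fold, the largest among the 13094 probe sets above the floor on both Col-0 arrays. In as2-1 it was 4.27-fold, and the mutant excess on DMSO was 6.28-fold. HMT3 was left out of the ranking in Col-0, being below the floor in Col-0 DMSO. With the floor at the 20th percentile its log2 inhibitor ratio there was 5.08, against 4.79 for CYP79F1/F2.

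CYP83A1, the P450 that oxidises the aldoximes in the next step, had signals of 314.2 (Col-0 DMSO), 1505 (as2-1 DMSO), 3391 (Col-0 10H-CPT) and 3805 (as2-1 10H-CPT). The wild type without inhibitor was again alone at the bottom. The inhibitor ratio of CYP83A1 was 10.8-fold in Col-0 and 2.53-fold in as2-1, and the mutant excess on DMSO was 4.79-fold.

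The last core step, sulfation of the desulfo-glucosinolate, is carried out by the sulfotransferases SOT17 and SOT18. SOT17 had signals of 90.2 in Col-0 DMSO, 346.3 in as2-1 DMSO, 1265 in Col-0 10H-CPT and 1469 in as2-1 10H-CPT. SOT18 had signals of 386.4, 1089, 2342 and 2706 in the same order. Both had the highest signal in the treated mutant, 1.16-fold above the treated wild type in each case. The inhibitor ratio in Col-0 was 14.0-fold for SOT17 and 6.06-fold for SOT18. In as2-1 it was 4.24-fold and 2.48-fold, and the mutant excess on DMSO was 3.84-fold and 2.82-fold.

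FMO GS-OX1 is a flavin-containing monooxygenase that oxygenates the sulfur of the side chain once the core is complete. Its signals were 48.4 (Col-0 DMSO), 375.6 (as2-1 DMSO), 1032 (Col-0 10H-CPT) and 1105 (as2-1 10H-CPT). The signal of untreated wild type was close to the floor, so the ratios against it are less firm than those of the brighter members. FMO GS-OX1 was 21.3-fold higher on the inhibitor in Col-0 and 2.94-fold higher in as2-1. Its mutant excess on DMSO, 7.77-fold, ranked 1 among the 13232 probe sets above the floor on both DMSO arrays. With log2(signal + 32) in place of the floor, this excess was 2.34 on the log2 scale, below the 2.38 of BCAT4. The first rank was thus not kept. HMT3, below the floor in Col-0 DMSO, was left out of this ranking too.

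MYB28, the transcription factor, had the smallest ratios of the members above the floor on every array. Its signals were 1019 in Col-0 DMSO, 1379 in as2-1 DMSO, 1856 in Col-0 10H-CPT and 1885 in as2-1 10H-CPT. Untreated wild type was lowest and the treated groups were alike, but the steps were small. The inhibitor ratio of MYB28 was 1.82-fold in Col-0 and 1.37-fold in as2-1, and the mutant excess on DMSO was 1.35-fold. Ranked by inhibitor ratio among the probe sets above the floor on both arrays, MYB28 stood at 274 of 13094 in Col-0 and at 1508 of 13158 in as2-1.

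HMT3 is a homocysteine methyltransferase, which makes methionine from homocysteine and S-methylmethionine and thus stands before the pathway. Its signals were 37.7 in Col-0 DMSO, below the floor, 207.2 in as2-1 DMSO, 1273 in Col-0 10H-CPT and 1366 in as2-1 10H-CPT. The treated groups were close together and far above the untreated wild type. HMT3 was at least 27.3-fold higher on the inhibitor in Col-0 and 6.59-fold higher in as2-1, the greatest ratio of any member there. The mutant excess on DMSO was at least 4.44-fold.

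**Figure D2:**
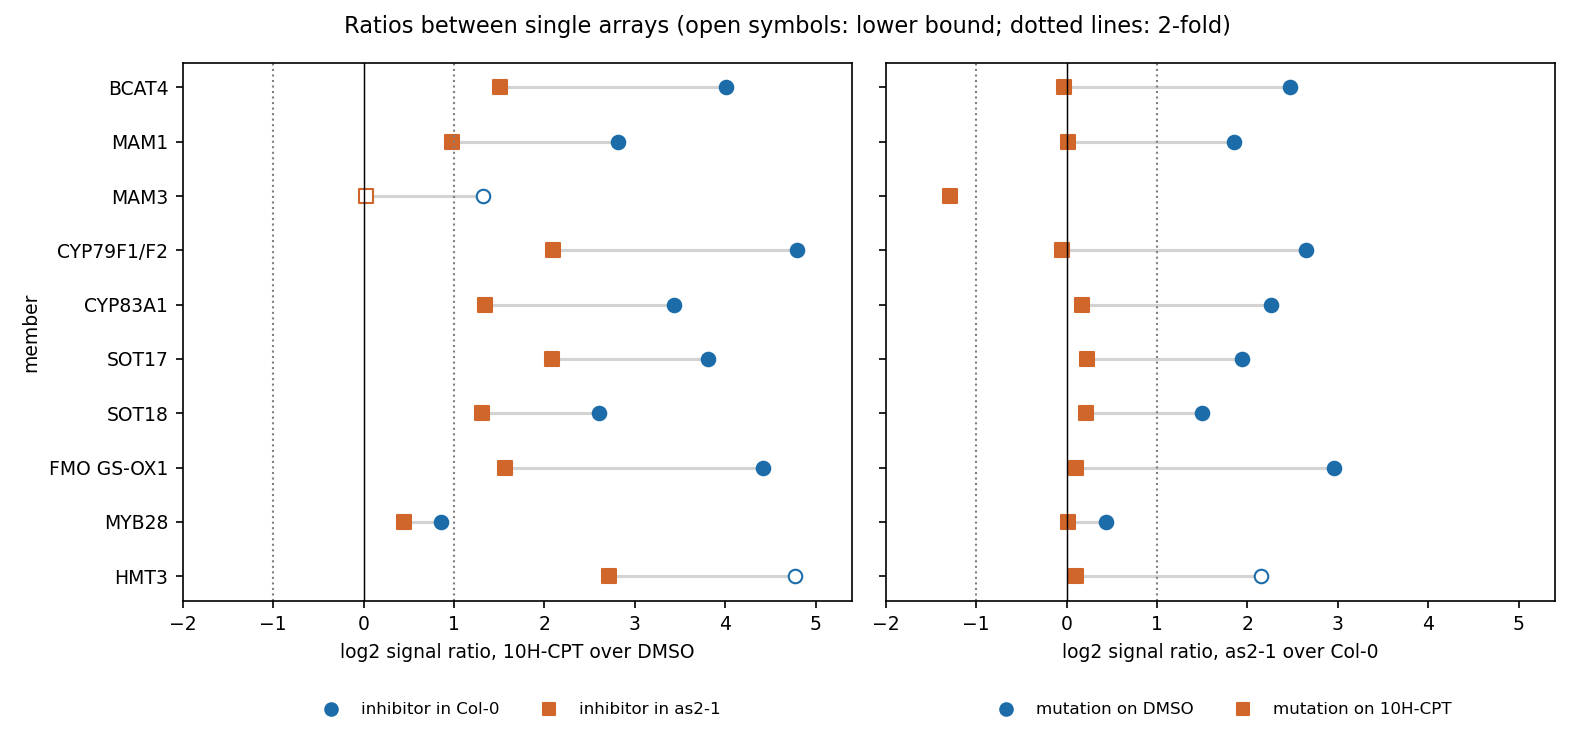
Log2 ratios of single arrays for each member, for 10H-CPT over DMSO (left) and as2-1 over Col-0 (right). Open symbols are lower bounds and dotted lines mark 2-fold. On 10H-CPT the genotype ratios of all members but MAM3 lie between -0.05 and 0.22.

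Across the members, the median inhibitor ratio was 12.3-fold in Col-0 over the 8 members above the floor on both arrays, and 2.86-fold in as2-1 over 9. The corresponding median of the mutant excess on DMSO was 4.29-fold over 8 members. On 10H-CPT the median genotype ratio was 1.04-fold over all 10. Over all measured probe sets the corresponding medians lay between -0.021 and 0.008 on the log2 scale in these comparisons. The treated mutant stood at least 2-fold above the untreated wild type for 8 members, against 4.27% of 14269 probe sets, with a median of 13.8-fold over the 8 members above the floor on both arrays. This ratio, the inhibitor ratio in Col-0 and the mutant excess on DMSO are all taken against the same Col-0 DMSO array and are not independent. In bulk tissue, fewer cells of a type and less RNA per cell cannot be told apart.

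The untreated mutant can be placed on the log2 scale between untreated and treated wild type. Of the 7 members above the floor on all arrays with an inhibitor ratio of at least 2-fold in Col-0, SOT17 was the least advanced, at 50.9% of that distance. FMO GS-OX1 was the furthest, at 67.0%. MAM1 (65.8%) and CYP83A1 (65.9%) were near the upper end. CYP79F1/F2 (55.3%), SOT18 (57.5%) and BCAT4 (61.4%, the median) lay between. The members' inhibitor ratios in Col-0 ranged from 6.06-fold to 27.7-fold among these genes, or from 2.6 to 4.79 on the log2 scale. Their place between untreated and treated wild type ranged from 50.9% to 67.0%. The 4 arrays do not tell how much of this variation is error. Both distances behind each percentage are taken from the same Col-0 DMSO array.

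The inhibitor ratio was smaller in as2-1 than in Col-0 for every member whose difference could be measured. It was at least 2-fold smaller for 8 of these 9, against 1.33% of 13535 probe sets. On the log2 scale, the difference was -2.86 for FMO GS-OX1, -2.70 for CYP79F1/F2, -2.5 for BCAT4, -2.09 for CYP83A1, -1.83 for MAM1, -1.72 for SOT17 and -1.29 for SOT18. For HMT3 it was -2.05 or lower, and for MYB28 only -0.41. MAM3 has no measured difference, since each of its ratios includes a signal below the floor. The inhibitor ratios of the 2 genotypes share no array. Their difference is nevertheless the same quantity as the genotype ratio with the inhibitor minus that without it. It thus restates contrasts already given, which were used in choosing the members, so nothing is read from the share of members.

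**Figure D3:**
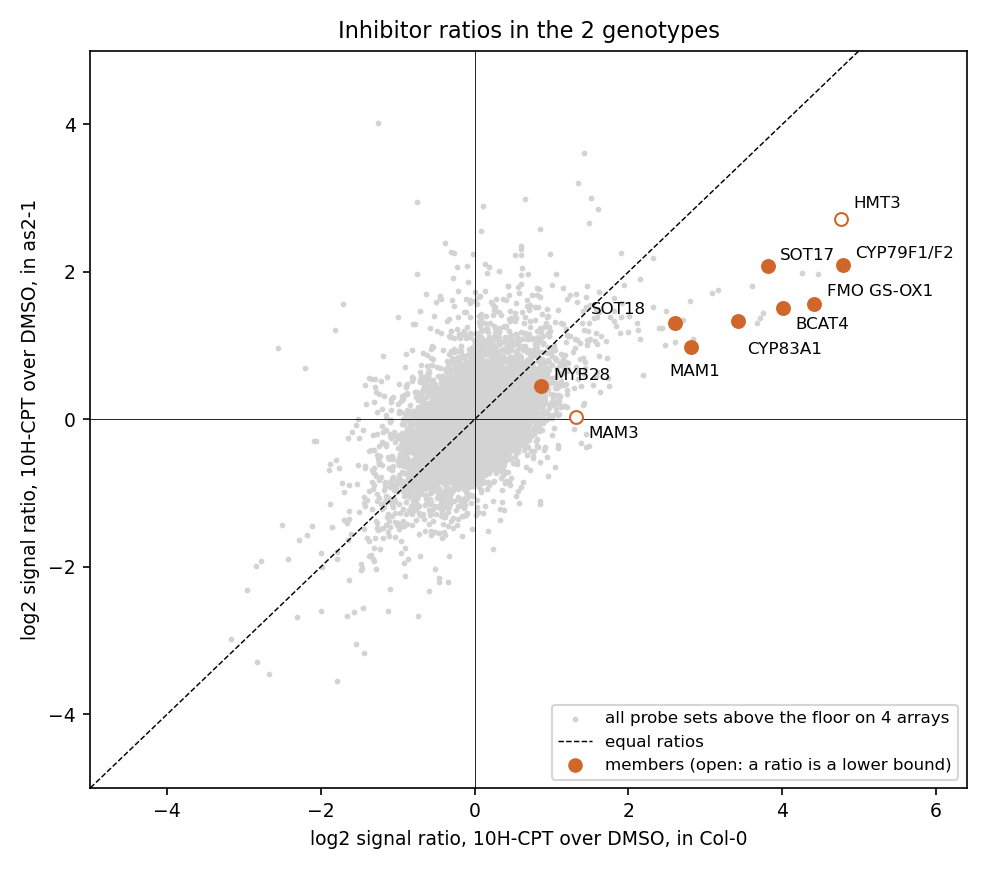
Log2 ratio of 10H-CPT over DMSO in Col-0 (horizontal) and as2-1 (vertical) for the 12717 probe sets that exceed the floor on every array (grey) and the 10 members (coloured, open where a ratio is a lower bound). All members are drawn to the right of the dashed line of equal ratios. Both ratios of MAM3 are lower bounds, so its side of the line is not measured. MYB28 (0.86 in Col-0 and 0.45 in as2-1) lies within the range of the grey points.

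The pattern as a whole was defined, after the values had been seen, as at least 2-fold higher on the inhibitor in both genotypes, at least 2-fold higher in as2-1 on DMSO, and under 2-fold different between the genotypes on 10H-CPT. It was met by 33 of the 14587 probe sets above the floor on at least 1 array (0.226%), and 7 of these 33 were members. MAM1 missed it by its ratio of 1.97-fold in as2-1, and MYB28 and MAM3 missed it as described.

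Other genes of the pathway were taken from lists of its stages, drawn up with earlier results of these data known, so their counts are not independent evidence. The lists hold 119 genes in 14 groups, and the annotation table pairs 20 of them, 19 besides BCAT4, with a probe set. Members apart, 11 genes of chain elongation, core synthesis, side chain modification, regulation and methionine metabolism could be followed. Of these, 3 (GSTU20, UGT74C1 and GSL-OH) had at least a 2-fold excess on the inhibitor in both genotypes, against 0.786% of 13748 probe sets, and none was 2-fold lower in both, against 0.989%. The median log2 ratio of the 10 measured ones was 0.61 in Col-0 and 0.35 in as2-1. GSTU20 was only just past the 2-fold threshold in as2-1, at 2.02-fold. At a 3-fold threshold none of the 3 passed in both genotypes.

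Of core synthesis, 3 listed genes besides the members had a named probe set. GSTU20, a glutathione transferase that joins glutathione to the oxidised aldoximes, had signals of 1016 (Col-0 DMSO), 2849 (as2-1 DMSO), 5656 (Col-0 10H-CPT) and 5753 (as2-1 10H-CPT). UGT74C1 (AT2G31790), a glucosyltransferase of the aliphatic branch, had signals of 235.1, 662.6, 1541 and 1687 in the same order. Both were lowest in untreated wild type, intermediate in untreated mutant and alike in the treated groups, with inhibitor ratios in Col-0 of 5.56-fold and 6.56-fold and mutant excesses on DMSO of 2.80-fold and 2.82-fold. UGT74B1, the glucosyltransferase shared with other glucosinolates, was 2.99-fold higher on the inhibitor in Col-0, 1.5-fold higher in as2-1, and 2.15-fold higher in as2-1 on DMSO.

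Of side chain modification, whose member FMO GS-OX1 is described above, the listed genes GSL-OH and AOP3 had a named probe set. GSL-OH (AT2G25450), a dioxygenase that hydroxylates alkenyl glucosinolates, had signals of 594.6 in Col-0 DMSO and 636.0 in as2-1 DMSO, and of 1793 and 1669 on 10H-CPT. It was 3.02-fold and 2.62-fold higher on the inhibitor in Col-0 and as2-1, but the untreated genotypes differed by only 1.07-fold. The mutant excess on DMSO that the members had was thus not seen for GSL-OH. AOP3, a dioxygenase that makes hydroxyalkyl side chains, was below the floor on all 4 arrays (2.7 to 21.8).

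Among the regulators, MYC3 and MYC4, bHLH factors that act with the MYB proteins in jasmonate signalling, differed by less than 2-fold in every comparison. The log2 inhibitor ratio of MYC3 was -0.58 in Col-0 and -0.13 in as2-1, and that of MYC4 was -0.49 and -0.36. In methionine metabolism, HMT1, which encodes the same kind of enzyme as HMT3, had log2 inhibitor ratios of -0.48 and -0.46. CBL, the cystathionine beta-lyase before methionine, was 1.74-fold and 1.88-fold higher on the inhibitor, under the threshold in both genotypes. MMT, the methyltransferase that makes S-methylmethionine, stayed within 1.35-fold in these ratios. MGL, which breaks methionine down, was 2.36-fold lower on the inhibitor in Col-0, where 2.10% of all measured probe sets were 2-fold lower. In as2-1 it was 1.42-fold lower.

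Sulfate supply and sulfur deficiency were represented by 3 genes. ATPS3, an ATP sulfurylase that activates sulfate, had signals of 193.5 (Col-0 DMSO), 338.7 (as2-1 DMSO), 635.7 (Col-0 10H-CPT) and 601.2 (as2-1 10H-CPT). Its inhibitor ratios were 3.29-fold in Col-0 and 1.77-fold in as2-1, and the untreated mutant again lay between untreated wild type and the treated groups. SDI2 (AT1G04770), a sulfur-deficiency gene whose product restrains glucosinolate synthesis, went the other way. Its signals were 642.8, 889.4, 389.0 and 301.3 in the same order, a 1.65-fold lower value on the inhibitor in Col-0. In as2-1 it was 2.95-fold lower, where 2.30% of all measured probe sets were 2-fold lower. BGLU28, a glucosidase induced by sulfur deficiency, had signals of 117.6 and 179.4 on DMSO in Col-0 and as2-1, and its 10H-CPT signals (41.1 and 21.6) were below the floor. Its ratio was thus at least 2.52-fold lower on the inhibitor in Col-0, and in as2-1 the bound was 3.85-fold. The glucosinolate transporters GTR1 and GTR2 differed by less than 2-fold in every comparison.

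**Figure D4:**
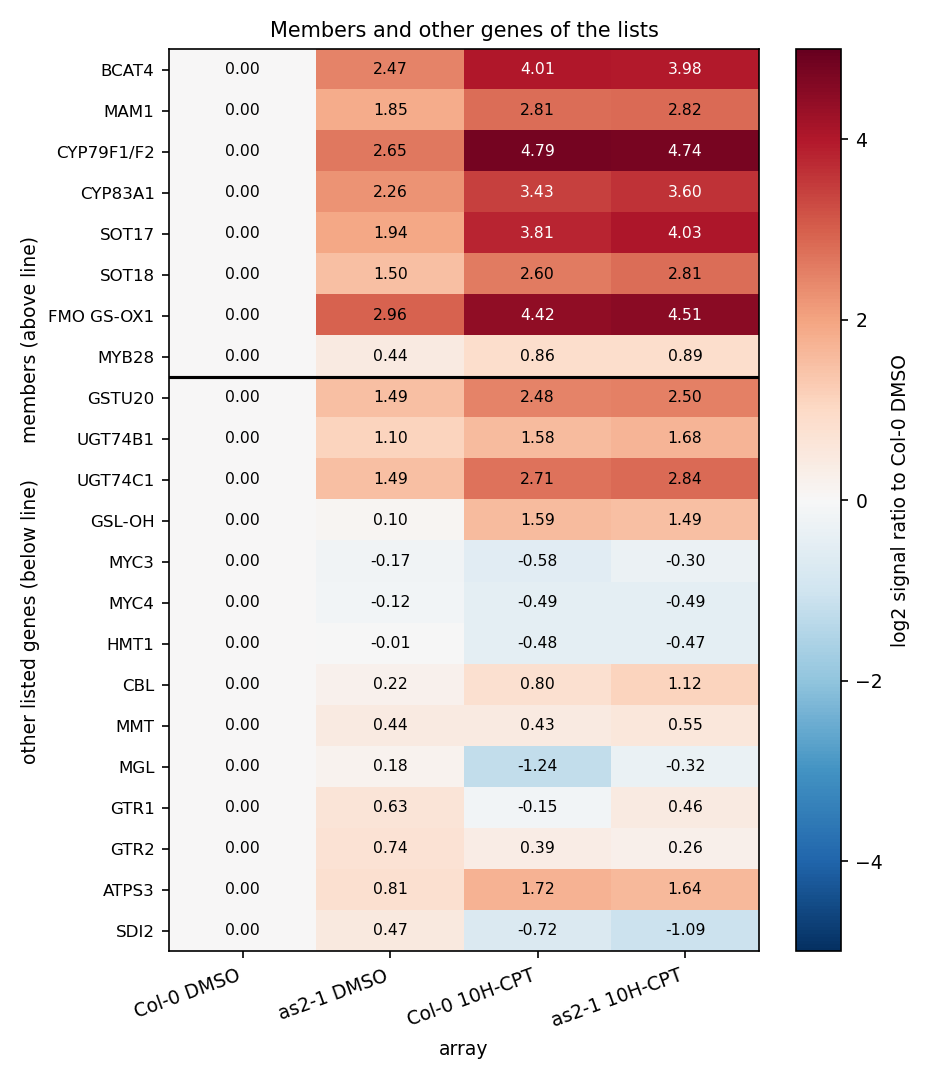
Log2 signal ratio of each array to Col-0 DMSO for the 8 members above the floor on all arrays (above the line) and for the other listed pathway, transport and sulfur genes above the floor on all arrays (below it). GSTU20 and UGT74C1 have the steps of most members. UGT74B1 has smaller ones (1.1 in as2-1 DMSO, 1.58 in Col-0 10H-CPT and 1.68 in as2-1 10H-CPT). GSL-OH lacks the step in untreated as2-1 (0.10). SDI2, MYC3, MYC4, HMT1 and MGL are below 0 on both 10H-CPT arrays.

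Likeness to the members was measured over the 4 arrays as the root mean square difference between a probe set's log2 signals and the members' median log2 signals, each centred on its own mean. That median profile was -2.38 in Col-0 DMSO, -0.19 in as2-1 DMSO, 1.24 in Col-0 10H-CPT and 1.32 in as2-1 10H-CPT. The members themselves were 0.10 (CYP83A1) to 1.32 (MAM3) away from it. Of 14577 other probe sets, the nearest, at 0.06, was one that the annotation table does not name. Its signals were 119.8, 593.8, 1565 and 1536 in the order of the groups just given.

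The 8 nearest probe sets with a single named gene were UGT74C1 (0.36), AT3G56360 (0.42), AT5G05250 (0.42), AT1G73600 (0.43), AT1G21440 (0.44), GSTU20 (0.48), AT1G47400 (0.61) and AT2G43550 (0.64). Another 21 without a single named gene were as near as the last of these. Both named genes of the pathway lists were thus of core synthesis, and 6 of the 8 are in none of the lists. The annotation table pairs only 20 of the 119 listed genes with a probe set, of chain elongation only BCAT4. These counts therefore also reflect which genes are named. AT5G05250 was below the floor in Col-0 DMSO (30.5) and had signals of 237.9 in as2-1 DMSO, 1116 in Col-0 10H-CPT and 1110 in as2-1 10H-CPT. AT1G73600 differed from the members in the treated groups, with 327.2 in Col-0 and 709.1 in as2-1 on 10H-CPT, a ratio of 2.17-fold. With 4 points per profile, likeness of this kind is a description only.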

How the data were processed

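Biotinylated cRNA from total RNA of each of the 4 samples was hybridised to 1 Affymetrix array, per the labels' protocols. The authors deposited 1 linear signal intensity for each probe set, made with MAS5 per the submitters' processing notes. Its version, scaling target and detection calls are not stated in what was used here. Trimmed means of the deposited intensities (2% left out at each end) lay between 198.3 and 198.5.

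Arrays were rescaled to a common trimmed mean by factors of 0.9994 to 1.0006, signals below the floor were set to it, and log2 ratios were taken between single arrays with a 2-fold threshold. Probe sets below the floor on both arrays of a comparison were not counted in it. A difference of ratios was left out where both ratios held a floored signal. MAS5 subtracts mismatch signal, which makes ratios of dim probe sets noisy. The number of arrays limits the precision. Depth does not apply. The ratio and count steps were checked on simulated data with changes planted only in bright probe sets. That check does not cover changes at dim or floored signals, or differences of ratios.

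Genes were named through GEO's platform annotation, updated by gene ID to RefSeq symbols. It names 1 gene for 13513 of the 22746 probe sets and several for 503. The members and lists were chosen with earlier results of these data known. Named genes were the members, listed genes past 2-fold on the inhibitor in both genotypes, the 3 genes of other lists ranking highest by the smaller of their 2 inhibitor changes, and the 8 nearest by likeness. The remaining listed genes are named for completeness. As alternatives, arrays were left unscaled or quantile normalized, the floor was moved to the 20th or 60th percentile or replaced by log2(signal + 32), the threshold was set to 1.5-fold or 3-fold, and probe sets shared between genes were dropped. The search for promoter motifs that had been planned was not run, since no sequences were used. Computation was in Python 3.11.15 with pandas 2.3.3, numpy 2.4.6 and scipy 1.17.1, and figures were drawn with matplotlib 3.10.9.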

Additional observations from a re-analysis of the deposited data

Results flagged for a closer look

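Some ratios had opposite signs in the 2 pairs of arrays of the same contrast. With 1 array per group these differences were not tested. For the mutation, the log2 ratio on 10H-CPT minus that on DMSO was -2.5 for BCAT4 and -2.70 for CYP79F1/F2, in both cases a large excess on DMSO (2.47 and 2.65) beside a ratio near 0 on 10H-CPT (-0.03 and -0.05). The same difference was -0.20 for GSL-OH, 0.45 for MYC3, 0.13 for MYC4, 0.02 for HMT1, -0.88 for GTR2, -0.89 for ATPS3 and -0.84 for SDI2. Each of these 7 genes had genotype ratios under 2-fold in both pairs. The values for BCAT4 and CYP79F1/F2 are the differences of inhibitor ratios already given above. FMO GS-OX1 (2.96 on DMSO, 0.10 on 10H-CPT) and CYP83A1 (2.26 and 0.17) were alike, but without a change of sign. For the inhibitor, only GTR2 had opposite signs among the members and the listed pathway, transport and sulfur genes, with 0.39 in Col-0 and -0.48 in as2-1, a difference of -0.88.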

How the results depend on the processing

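No ratio of a member past 2-fold changed sign under any alternative run. At a 3-fold threshold, 3 members in place of 7 passed on the inhibitor in as2-1, and 0 in place of 3 other pathway genes passed in both genotypes. The other counts of members at least 2-fold higher stayed within 1.5 times of those reported. Members with inhibitor ratios differing past 2-fold between genotypes numbered 9 with the floor at the 20th percentile and 7 at the 60th, in place of 8. The 1 member 2-fold lower in as2-1 on 10H-CPT, MAM3, was no longer past the threshold with log2(signal + 32) (-0.90 on the log2 scale) or at 3-fold (2.45-fold), and had no value with the floor at the 60th percentile. MAM1 in as2-1 passed 2-fold after quantile normalization, which gave 8 members in place of 7. Values as deposited and quantile normalization moved none of the 58 log2 ratios and differences of members by more than 0.5. The floor at the 20th percentile moved 3 of 58, all of MAM3, the floor at the 60th percentile 16 of 54, and log2(signal + 32) 10 of 58. With the floor at the 60th percentile (137.3), the signals of CYP79F1/F2, FMO GS-OX1 and SOT17 in untreated wild type were below it, so their ratios against that array became bounds, as those of HMT3 already were. Their sizes thus rest on dim signals of 1 array, and nothing here measures array error. No paired analysis was possible because each group has 1 array.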
